A study of Homo sapiens with 4 samples.

Results

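The T-box genes encode transcription factors that share one DNA-binding domain, and 9 of them were followed here in H1 human embryonic stem cells at day 2 of hematopoietic differentiation. They were T (Brachyury), EOMES, TBX6, TBX3, TBX20, TBX2, TBX1, TBX5 and TBX18, taken by symbol from a table of 58365 gene rows, at the row of highest mean where a symbol was repeated. TBX18 was the member with such a repeat, and its other row was listed at 0 in all 4 libraries. Bulk RNA-seq was compared between 2 libraries of cells given DMSO and 2 of cells given IWP2, a small molecule that blocks Porcupine, the enzyme that acylates Wnt proteins so that they can be secreted. All cells were H1 cells kept for 2 days in custom mTeSR1 medium with activin A and BMP4, so the factors that induce mesoderm were present in both groups. The labels give 40 ng/ml activin A and 50 ng/ml BMP4, and the study's methods give these concentrations the other way round. The IWP2 concentration is not given in the sources used here. Nothing in the labels says whether the libraries came from separate cultures, so the p-values measure the spread between these libraries, which may be technical.

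T-box proteins act in a sequence during early development. T and EOMES switch on in the primitive streak, where Wnt and Nodal signals meet and pluripotent epiblast becomes mesoderm or endoderm. TBX6 directs nascent mesoderm towards the paraxial fate, TBX20, TBX5 and TBX18 work in the heart and its lining, TBX1 in the pharyngeal region, and TBX2 and TBX3 are mainly repressors. With IWP2, T was 2.02-fold lower, whereas EOMES, TBX3, TBX6 and TBX20 were 4.88- to 13.1-fold lower in mean FPKM (a fragment count corrected for gene length and library size). TBX2, TBX1, TBX5 and TBX18 lay under 0.5 FPKM on average and were described without being called.

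The DNA just upstream of 3 of the members, T, TBX6 and TBX20, is shown for reference. Any relation of its CpG content to the changes with IWP2 was not tested. Each stretch is from RefSeq on GRCh38.p14, on the minus strand that carries the gene, 5′ to 3′, and stops before the gene begins as listed in the deposited table. Capitals mark CpG dinucleotides, the sites of DNA methylation that are dense in promoters of developmental regulators.
T (chr6:166168701-166168905, minus strand): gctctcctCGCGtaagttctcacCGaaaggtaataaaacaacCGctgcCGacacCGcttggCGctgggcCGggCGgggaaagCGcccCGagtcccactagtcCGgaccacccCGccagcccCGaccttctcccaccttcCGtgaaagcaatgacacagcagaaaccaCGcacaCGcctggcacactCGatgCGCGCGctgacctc
TBX6 (chr16:30091925-30092174, minus strand): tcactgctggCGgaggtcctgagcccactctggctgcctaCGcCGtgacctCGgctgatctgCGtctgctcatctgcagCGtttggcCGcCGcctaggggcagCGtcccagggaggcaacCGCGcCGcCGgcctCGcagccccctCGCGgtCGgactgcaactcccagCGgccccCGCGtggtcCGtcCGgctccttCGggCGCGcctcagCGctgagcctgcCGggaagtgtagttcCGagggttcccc
TBX20 (chr7:35254148-35254350, minus strand): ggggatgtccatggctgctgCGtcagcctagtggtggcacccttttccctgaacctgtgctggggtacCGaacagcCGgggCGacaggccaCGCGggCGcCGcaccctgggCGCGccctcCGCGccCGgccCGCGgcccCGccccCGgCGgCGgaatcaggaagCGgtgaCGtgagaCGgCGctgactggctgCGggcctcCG

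These windows held 21 CpG in 205 bases for T, 28 in 250 bases for TBX6 and 25 in 203 bases for TBX20. Over all 35116 upstream windows of 250 bases the median was 11 CpG. In the full 250 bases before each RefSeq start, T had 23 and 22 CpG, TBX20 31, EOMES 19 and TBX18 20. TBX1 had 17, and TBX5 had 20 and 13 before separate starts. The windows were searched on both strands for CTTTGA, the core bound by the TCF/LEF factors that act with beta-catenin, and for GGTGTG, the core of the T-box half-site. Neither core was in the windows printed above. CTTTGA was in 11.2% of all windows and GGTGTG in 14.2%. The second RefSeq start of T, which lies inside the gene, had 1 TCF/LEF core, read on the opposite strand and shown in capitals in this 30-base stretch.
T, second start (chr6:166167921-166167950, minus strand): ctgcccggcactTCAAAGcgtgcgcggccc

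In the GENCODE 29 annotation this stretch was intronic in 3 of the 4 transcripts of T and lay outside the fourth. A GGTGTG core was in the window of TBX1 among the members with an entry, and RefSeq windows were matched for 14 of the 17 T-box genes of the table.

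The 4 libraries were alike in breadth, with 24205 to 24512 rows above 0. Their summed FPKM ran from 616418 to 653850. A few very abundant RNAs differed within groups, as MT-ATP8 had 33374 and 9279 FPKM in the DMSO libraries and 26236 and 11660 with IWP2. Read depth is unknown because the table holds no counts. Across the 15980 genes with a mean of at least 0.5 FPKM, the replicates correlated at r = 0.975 for DMSO and r = 0.981 for IWP2 on log2(FPKM + 1), and libraries of different groups at 0.938 to 0.948. At an adjusted p under 0.05 in limma, 1175 genes (7.35%) were lower and 929 (5.81%) higher with IWP2, and the members' calls are read against those shares.

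T, the founding T-box gene and a direct Wnt target, was expressed in all 4 libraries. It had 21.6 and 18.5 FPKM in the DMSO libraries (20.0 ± 2.22, SD, n = 2) and 9.40 and 10.4 FPKM with IWP2 (9.91 ± 0.711, n = 2). The groups did not overlap, and both IWP2 libraries kept a clear level of T. The mean FPKM was 2.02-fold lower. On the log2(FPKM + 1) scale the change was -0.94 ± 0.12 (SE), with a 95% interval from -1.26 to -0.63 and a limma adjusted p of 0.0115. This call was the least firm of the members tested. Without the filter on low genes the adjusted p was 0.0723 at the same change. Leaving out DMSO replicate 1 gave -0.84 (adjusted p = 0.0732, limma), DMSO replicate 2 gave -1.05 (0.0636), IWP2 replicate 1 gave -0.88 (0.139) and IWP2 replicate 2 gave -1.01 (0.122).

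EOMES, which drives definitive endoderm and cardiac mesoderm from the same streak cells, was the most abundant T-box gene in both groups. It stood at 138 and 153 FPKM in the DMSO libraries (145 ± 10.4, n = 2). With IWP2 it was at 12.8 and 12.6 FPKM (12.7 ± 0.156, n = 2), so the groups were far apart and the IWP2 libraries nearly equal. The mean was 11.4-fold lower. Its log2(FPKM + 1) change was -3.41 ± 0.090, from -3.64 to -3.18 at 95%, with a limma adjusted p of 0.000310. All 11 alternatives kept EOMES past the threshold, with adjusted p between 0.000186 and 0.0391. Among the 15980 genes tested, 57 had a more negative change than EOMES and 788 a more negative change than T.

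**Figure D1:**
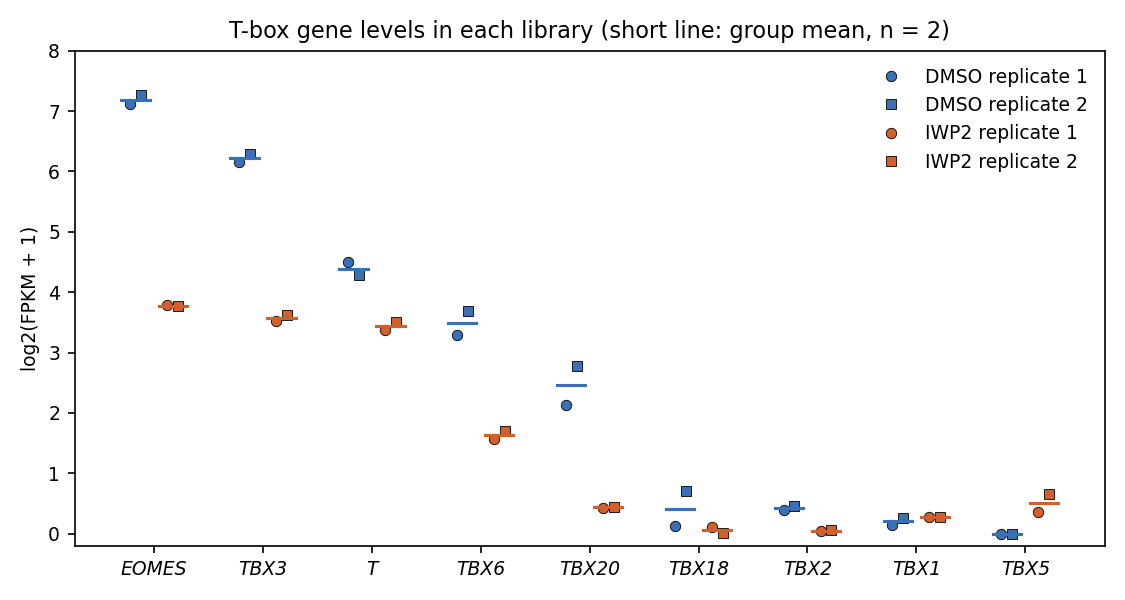
Level of each of the 9 T-box members as log2(FPKM + 1) in the 2 DMSO (blue) and 2 IWP2 (orange) libraries, with short lines at the group means. EOMES, TBX3 and T had group means spread over 2.80 units with DMSO and 0.33 units with IWP2, while 4 members were close to 0 in all libraries.

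TBX6, the paraxial mesoderm factor, had 8.78 and 11.8 FPKM in the DMSO libraries (10.3 ± 2.16, n = 2) and 1.96 and 2.26 FPKM with IWP2 (2.11 ± 0.211, n = 2). The groups did not overlap and the mean was 4.88-fold lower. The log2(FPKM + 1) change was -1.85 ± 0.18, from -2.30 to -1.40, with a limma adjusted p of 0.00523. The call was lost without the filter (limma adjusted p = 0.0634) and on leaving out DMSO replicate 2 (-1.65, adjusted p = 0.0531), IWP2 replicate 1 (-1.78, 0.101) or IWP2 replicate 2 (-1.92, 0.0965). TBX6 is flanked within 1000 bases by PPP4C and YPEL3. PPP4C had 132 and 145 FPKM in the DMSO libraries and 116 and 126 with IWP2. YPEL3 had 36.7 and 23.3 FPKM against 33.1 and 28.8, so its groups overlapped.

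TBX3, a repressor found in early mesoderm, endoderm and amnion as well as in pluripotent cells, was the second most abundant member in the DMSO libraries. It had 70.6 and 77.3 FPKM there (74.0 ± 4.70, n = 2) and 10.5 and 11.4 FPKM with IWP2 (10.9 ± 0.635, n = 2). The groups were widely separated and the mean was 6.77-fold lower. Its log2(FPKM + 1) change was -2.65 ± 0.097, from -2.90 to -2.40, with a limma adjusted p of 0.000439. Like EOMES, TBX3 passed under all 11 alternatives, with adjusted p up to 0.0399.

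TBX2, its closest relative, was scarcely expressed. It had 0.309 and 0.379 FPKM in the DMSO libraries and 0.0257 and 0.0446 with IWP2. The groups did not overlap, as was the case, with IWP2 lower, for 15.3% of the 12937 genes above 0 but under the filter. In the fit without a filter, which called 0.909% of 28917 genes lower, TBX2 had a limma adjusted p of 0.0753. Its overlapping antisense gene TBX2-AS1 was at 0.186 and 0.270 FPKM in the DMSO libraries and listed at 0 in both IWP2 libraries. The use of strand in the authors' counting is not given in the sources used here, so reads of such a pair may not be told apart.

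TBX20, which works with GATA4 and NKX2-5 in the early heart, had 3.38 and 5.87 FPKM in the DMSO libraries (4.62 ± 1.76, n = 2). With IWP2 it was at 0.343 and 0.361 FPKM (0.352 ± 0.0124, n = 2). Relative to their mean, the DMSO libraries differed more than those of any other member tested, yet both lay well above the IWP2 libraries. The ratio of means, 13.1-fold, exceeded that of EOMES, but on the log2(FPKM + 1) scale, which compresses low values, the change was -2.02 ± 0.25 (from -2.67 to -1.37, limma adjusted p = 0.0105). With a pseudocount of 0.1 the change was -3.33 (limma adjusted p = 0.00643). TBX20 passed the filter through its DMSO libraries alone. The call was lost without the filter (limma adjusted p = 0.0837) and on leaving out IWP2 replicate 1 (-2.01, adjusted p = 0.136) or IWP2 replicate 2 (-2.03, 0.135).

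TBX5, the limb and heart factor that lies 262 kb from TBX3 on chromosome 12, went the other way at a very low level. It was listed at 0 in both DMSO libraries and had 0.285 and 0.572 FPKM with IWP2. Its antisense partner TBX5-AS1, which overlaps its 5′ end, was also listed at 0 in both DMSO libraries and had 0.153 and 0.0925 FPKM with IWP2. Without the filter TBX5 had a limma adjusted p of 0.160. TBX18, an epicardial and sinus node factor, had 0.0900 and 0.630 FPKM in the DMSO libraries and 0.0827 and 0.00764 with IWP2. DMSO replicate 2 carried most of that level, and the unfiltered adjusted p was 0.546 (limma). TBX1, the pharyngeal factor, had 0.108 and 0.195 FPKM against 0.215 and 0.214 with IWP2, and its unfiltered adjusted p was 0.569 (limma). The end of TBX1 overlaps GNB1L on the opposite strand, which was at 8.42 to 10.2 FPKM in the 4 libraries.

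All 9 members therefore had groups that did not overlap, 7 with IWP2 lower and TBX1 and TBX5 with IWP2 higher. In genes that passed the filter this was the case for 31.0% with IWP2 lower and 27.6% with IWP2 higher, so separation of 2 libraries from 2 was common. Among the 12937 genes above 0 but under the filter, where TBX2, TBX18, TBX1 and TBX5 stood, it was the case for 15.3% with IWP2 lower and 14.9% with IWP2 higher. The 5 members tested were all called lower, with a median change of -2.02 against -0.0144 over all genes tested, a description only, since TBX20 passed the filter through one group and 4 members were not tested. An exact permutation test of a single gene cannot go below p = 0.333 with 2 libraries a group.

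**Figure D2:**
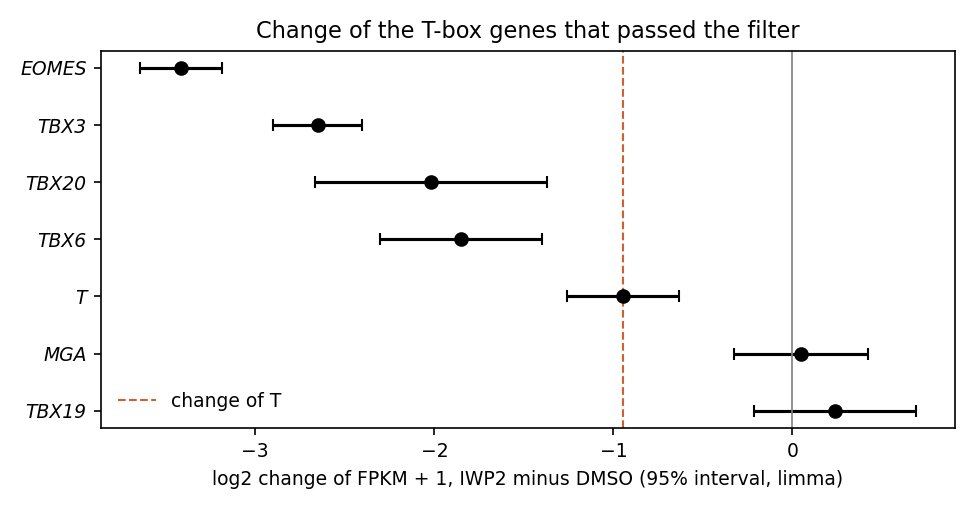
Change of log2(FPKM + 1) with IWP2 for the 7 T-box genes that passed the filter, as limma estimates with 95% intervals, and the change of T as a dashed line. The intervals of EOMES, TBX3, TBX20 and TBX6 lie to the left of that of T, and those of MGA and TBX19 include 0.

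**Figure D3:**
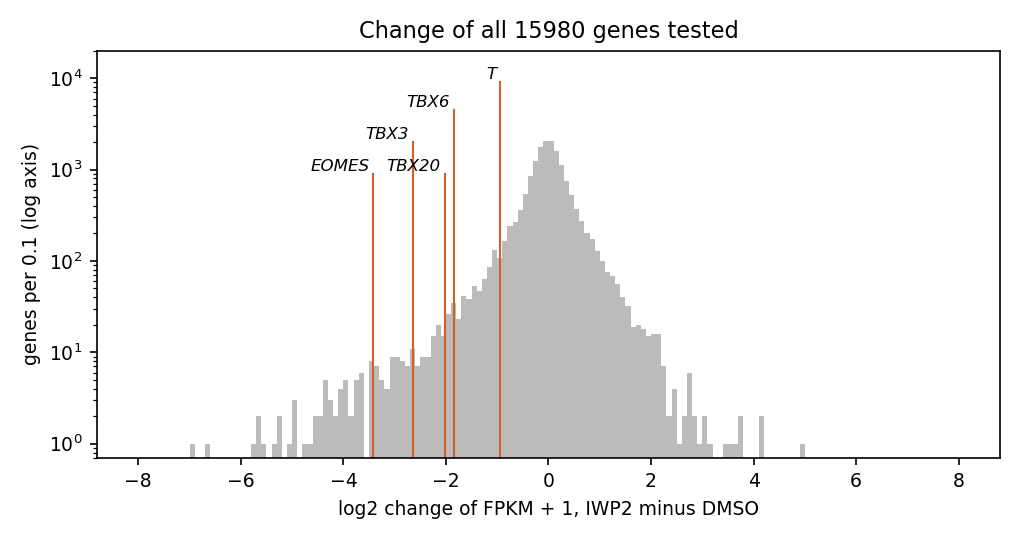
Number of genes per 0.1 unit of log2(FPKM + 1) change with IWP2, on a log axis, for all 15980 genes tested, with the 5 tested members as vertical lines. EOMES, at -3.41, is in the far left tail, and T, at -0.94, is nearer the bulk of the genes.

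To set the fall of T beside those of the other members, log2(FPKM + 1) of T was subtracted from each gene's in the same library. All genes were then fitted again. This contrast was chosen with the small fall of T in these libraries already known. The adjusted p-values relative to T therefore describe the contrast and are no independent test of it. Relative to T, the change of EOMES was -2.47 ± 0.18 (from -2.86 to -2.08, limma adjusted p = 2.7e-06) and that of TBX3 -1.71 ± 0.18 (from -2.10 to -1.31, limma adjusted p = 2.91e-05). TBX20 changed by -1.08 ± 0.30 relative to T (limma adjusted p = 0.00623) and TBX6 by -0.91 ± 0.24 (0.00474). EOMES, TBX3 and TBX6 lay below T, as did 2.09% of all genes, and so did TBX20, whose value is a description because it passed the filter through its DMSO libraries alone. With a pseudocount of 0.1 the change of TBX20 relative to T was -2.33 (limma adjusted p = 0.00119). The variation of T enters every gene of that fit, which had 11.52 total degrees of freedom where the fit over all genes had 5.073, so the difference was also computed with the standard errors of both genes combined. This gave a limma adjusted p of 0.00418 for EOMES, 0.00498 for TBX3, 0.0132 for TBX6 and 0.0176 for TBX20. The difference of TBX20 from T was lost without DMSO replicate 2 (-0.64, limma adjusted p = 0.0630).

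The ratios within a library show the same contrast. EOMES was 6.38 and 8.27 times the FPKM of T in the DMSO libraries, and 1.36 and 1.21 times with IWP2. TBX3 was 3.27 and 4.19 times T, and then 1.12 and 1.09 times. TBX6 went from ratios of 0.407 and 0.641 to 0.209 and 0.217. TBX20 went from 0.156 and 0.318 to 0.0365 and 0.0347. Exact permutation gave p = 0.333 for each of these ratios, the smallest possible (two-sided). This is a description, since T itself differed between the groups and the share of all genes reaching that value was not computed.

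**Figure D4:**
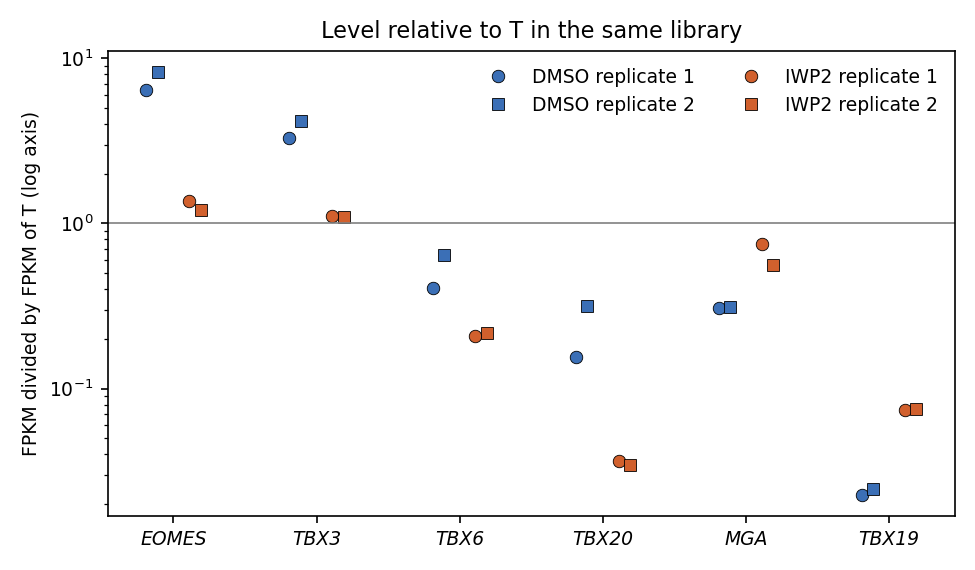
FPKM of 6 T-box genes divided by the FPKM of T in the same library, on a log axis, for the 2 DMSO (blue) and 2 IWP2 (orange) libraries. EOMES and TBX3 fall from several times T to close to 1, TBX6 and TBX20 fall further below T, and MGA and TBX19 move up towards T.

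The order of levels narrowed accordingly. In the DMSO libraries the order was EOMES, TBX3, T, TBX6, MGA and TBX20, and the libraries of the first 4 did not overlap between neighbours. With IWP2 the first 3 were still EOMES, TBX3 and T. There TBX3 at 10.5 and 11.4 FPKM and T at 9.40 and 10.4 FPKM lay close together, with TBX3 the higher in each library. The summed FPKM of all 17 T-box genes was 251 and 275 in the DMSO libraries and 44.3 and 45.6 with IWP2. EOMES made up 54.9% and 55.5% of that sum in the DMSO libraries and 28.9% and 27.6% with IWP2. The share of T went from 8.60% and 6.71% to 21.2% and 22.8%, although T itself fell. TBX3 held 28.1% and 28.1%, then 23.7% and 25.0%. In bulk RNA, fewer cells that express a gene and less RNA of it per cell cannot be told apart.

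**Figure D5:**
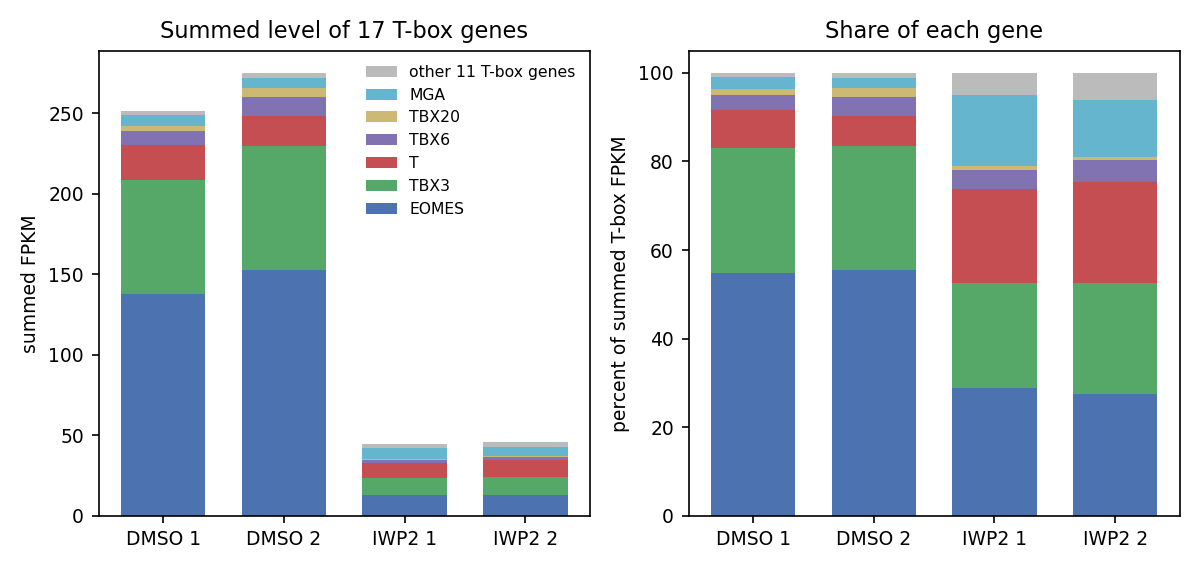
Summed FPKM of 17 T-box genes in each library (left, stacked bars from 0) and the percent of that sum held by each gene (right). The sum falls from over 250 to about 45 FPKM, the share of EOMES shrinks, and those of T and MGA grow.

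Of the other 8 T-box genes of the table, 2 passed the filter and neither was called. MGA, a large repressor with both a T-box and a MYC-type domain, had 6.64 and 5.78 FPKM in the DMSO libraries and 7.10 and 5.84 with IWP2. The groups overlapped, the log2(FPKM + 1) change was 0.048 (from -0.33 to 0.42, limma adjusted p = 0.868), and its sign turned to -0.038 without DMSO replicate 2 and -0.074 without IWP2 replicate 1. TBX19, the pituitary factor, had 0.494 and 0.458 FPKM against 0.702 and 0.780, a change of 0.24 (from -0.21 to 0.69, limma adjusted p = 0.438). Relative to T, MGA was higher by 0.99 ± 0.21 (limma adjusted p = 0.00144, and 0.00767 with combined standard errors), as were 84.6% of all genes. TBX19 stood 1.18 ± 0.28 above T in change, a description, since it passed the filter through its IWP2 libraries alone. TBX4, 42.9 kb from TBX2, was at 0.664 and 0.846 FPKM in the DMSO libraries and 0.251 and 0.140 with IWP2, under the filter, and had an unfiltered adjusted p of 0.117 (limma). TBX10, TBX15, TBX22 and TBR1 stayed under 0.5 FPKM in all libraries, and TBX21 was listed at 0 throughout.

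Lists of genes that T-box factors work with also held many that were lower. Over all 15980 genes tested, 7.35% were called lower and 5.81% higher, and the counts of every list below stand beside those shares. Of 18 primitive streak and mesendoderm genes, 17 were tested, 14 were lower and 0 higher, with a median change of -3.60. The streak genes tested but not called were NODAL (change 0.105), FGF4 (-0.117) and SOX17 (-0.541). MESP1, a mesoderm regulator that EOMES activates, had a mean of 61.1 FPKM in the DMSO libraries and 0.165 with IWP2 (limma adjusted p = 0.000648). APLNR, the receptor that marks early mesoderm, went from 446 to 2.68 FPKM (0.000310). Of 15 presomitic genes around TBX6, 8 were tested and 4 were lower. Among those, DLL3, the Notch ligand of the segmenting mesoderm, went from 63.2 to 0.273 FPKM (limma adjusted p = 0.00103), and CDX2, a posterior homeobox factor, from 5.35 to 0.189 FPKM (0.00179). The other presomitic genes tested were not called, with changes of 0.60 for LFNG, 0.28 for TCF15, 0.057 for DLL1 and -0.36 for CDX4. Of 15 cardiac and lateral plate genes, 12 were tested, 8 were lower and 0 higher. GATA6 went from 127 to 3.26 FPKM (limma adjusted p = 0.000310) and GATA4, a partner of TBX5 and TBX20, from 69.3 to 3.47 FPKM (0.000411). The cardiac genes tested but not called were GATA5 (change -0.074), ISL1 (-0.088), SALL4 (-0.098) and TNNT2 (0.50). Several of the genes called lower had an IWP2 mean under the filter of 0.5 FPKM and so were tested through their DMSO libraries: 6 of the 14 streak genes, MESP1 among them, 3 of the 4 presomitic genes, DLL3 and CDX2 included, and 2 of the 8 cardiac genes. The counts of these lists are therefore descriptions.

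Genes listed as Wnt/beta-catenin targets were read beside T, and these libraries hold no direct measure of Wnt activity. All 10 were tested, 8 were lower and 0 higher, with a median change of -1.46. This count is a description, since 2 of the 8 passed the filter through their DMSO libraries alone. SP5 went from a mean of 50.1 to 0.371 FPKM (limma adjusted p = 0.000310) and LEF1 from 9.52 to 0.191 FPKM (0.000788), and both were tested through their DMSO libraries, as their IWP2 means lay under the filter. DKK1 changed by -4.24 (limma adjusted p = 0.00149), NKD1 by -4.12 (0.000650) and APCDD1 by -1.75 (0.00253), with IWP2 means over the filter. NKD1 went from a mean of 45.2 to 1.63 FPKM. The remaining called targets, named here after their values were seen, moved by amounts nearer to the -0.94 of T. AXIN2, a feedback inhibitor of the pathway, had 14.2 and 15.2 FPKM in the DMSO libraries and 6.45 and 5.58 with IWP2, a change of -1.16 (limma adjusted p = 0.00638). NOTUM, which removes the acyl group of Wnt proteins, changed by -1.06 (limma adjusted p = 0.00836) and TCF7 by -0.99 (0.00579). The 2 targets not called were RNF43 and ZNRF3, ligases that remove Wnt receptors. RNF43 had 1.99 and 1.03 FPKM against 0.955 and 1.45, and ZNRF3 had 5.66 and 5.97 FPKM against 7.04 and 6.49. Of 8 pluripotency markers, 5 were higher and 1 lower. SOX2 rose from 0.183 to 35.8 FPKM and POU5F1 from 661 to 1849 FPKM (limma adjusted p = 0.000310 and 0.00559), and TDGF1, a Nodal co-receptor, fell from 212 to 101 FPKM (0.00340). SOX2 passed the filter through its IWP2 libraries alone. NANOG had 23.0 and 9.54 FPKM in the DMSO libraries and 33.6 and 27.5 with IWP2 (limma adjusted p = 0.183), and LIN28A had a change of -0.046 (0.746), so neither was called. The part of these markers in the T-box changes was not tested.

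Markers of other cell types were also measured. Of 8 definitive endoderm markers, 7 were tested and 6 were lower, 3 of them tested through their DMSO libraries alone, and their summed level was 1921 and 2309 FPKM in the DMSO libraries and 126 and 137 with IWP2. CER1 made up most of the sum in the DMSO libraries, going from a mean of 1830 to 36.4 FPKM. SOX17, tested but not called, had 155 and 104 FPKM with DMSO and 79.7 and 94.9 with IWP2 (limma adjusted p = 0.167). Most of the sum left with IWP2 was SOX17. Of 9 extraembryonic and amnion markers, 7 were tested, KRT7 and TFAP2A were higher and CDX2 lower, and the sum ran from 89.8 to 102 FPKM over all 4 libraries. Of 8 hematoendothelial markers, 5 were tested and KDR was lower, with sums of 61.8 and 66.4 against 42.2 and 40.0 FPKM. Of 7 neural markers, 3 were tested and NES was higher, with sums of 101 and 88.9 against 137 and 126 FPKM, while SOX1 was at or near 0 in all 4. NES made up most of that sum, with 98.6 and 87.1 FPKM in the DMSO libraries and 136 and 125 with IWP2, and the median change of the 3 neural markers tested was -0.72. The other two, named after their values were seen, were lower in both IWP2 libraries but not called. PAX6 had 1.33 and 0.646 FPKM against 0.0838 and 0.0278 (limma adjusted p = 0.0780), and OTX1 had 0.794 and 0.973 FPKM against 0.138 and 0.141 (0.0681). CDX2, CER1, GATA6, SOX17, FOXA2 and ISL1 stand in more than one of these lists.

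The genes whose profile over the 4 libraries was nearest to that of T, among 9616 other genes with a mean of at least 5 FPKM, were NBPF15, TMEM200B and PPP1R15A. Their distances from T, on log2(FPKM + 1) centred on each gene's mean, were 0.0568, 0.0661 and 0.0858. PPP1R15A, a stress-induced phosphatase subunit, had 23.9 and 19.0 FPKM in the DMSO libraries and 10.2 and 10.8 with IWP2. The genes nearest to EOMES were CDH11, LIFR and LIPG, at distances of 0.142, 0.164 and 0.236. CDH11, a mesenchymal cadherin, had 54.6 and 65.4 FPKM in the DMSO libraries and 4.30 and 4.84 with IWP2. LIFR, the receptor of leukemia inhibitory factor, had 29.1 and 38.1 FPKM against 2.25 and 2.20. The profiles have 4 points in 2 groups, so this measure rests mostly on the size of the change.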

How the data were processed

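RNA was extracted with Trizol and libraries were made with the Illumina TruSeq RNA kit. The authors deposited 1 table with an FPKM value per gene and library. The unit is not named in the file, and was taken from its decimals, its column sums and the use of RSEM. The submitters' processing notes name RSEM, Bowtie, BWA and hg19 with no versions or roles. The row coordinates were those of GRCh38: of 55723 gene IDs found in GENCODE 29, 99.8% had equal coordinates once 1 was added to the start.

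Groups were taken from the sample titles, and columns were matched by the sign in their name (with or without IWP2) and carry its number, 1 or 2. Genes with a mean of at least 0.5 FPKM over the 4 libraries were kept. limma 3.58.1 in R 4.3.3 was run on log2(FPKM + 1) with an intensity trend and Benjamini-Hochberg adjustment over all genes tested, two-sided, with calls at an adjusted p under 0.05. A fold change on this scale understates the change of low genes. The code was tested on simulated data. Single ratios were tested by exact permutation. Depth is unknown, so no counting interval is given.

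The members, gene lists and tests were chosen with earlier results of these data known. All T-box genes of the table are named, and from each other list genes among the 4 largest changes called. Some further genes of the lists were named after their values were seen. Alternatives were another pseudocount, other filters, no trend, other scalings, a replicate block and leaving out each library. The combined standard errors were added after seeing the data. Upstream sequences are from RefSeq, GRCh38.p14.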

Additional observations from a re-analysis of the deposited data

How the results depend on the processing

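EOMES and TBX3 kept their direction and passed under all 11 alternatives, and no tested member changed direction. With no filter on low values, 263 genes were called lower and 118 higher, 26559 lay above T in change, 2 members (EOMES and TBX3) and 3 higher genes of the other 9 lists were called, with 28917 genes tested in place of 15980. Leaving out 1 library left 76 to 410 genes called lower, 18 to 286 called higher, 2 to 4 members lower, and 15 to 31 genes lower and 1 to 5 higher in the other lists, where all libraries gave 39 and 8. In these fits the lone library of a group is assumed to vary like the others. Among single-gene results, MGA ran from -0.074 to 0.17 when a library was left out, reversing without DMSO replicate 2 (-0.038) and without IWP2 replicate 1 (-0.074).

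Scaling by median of ratios moved the median change of all genes from -0.0144 to -0.00187, and quantile normalization moved it to 0.0247, with no member's call changed. The deviations of same-numbered libraries correlated at 0.142 across genes, and no label says that a number marks a shared culture or day. With the replicate block 1059 genes were lower and 842 higher, and it changed no call of a tested T-box gene. Library depth is unknown, so values under 0.5 FPKM have no stated precision.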
